A study of Mus musculus with 9 samples.

Results

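The genes described here encode the enzymes of the tricarboxylic acid (TCA) cycle and of the reactions that feed it, in the mouse heart around birth. They were chosen by name and not by their values: the cycle enzymes, succinate dehydrogenase with its assembly factors, the cytosolic counterparts, the malic enzymes, the transaminases and the anaplerotic enzymes. The list holds 34 of the 48820 genes measured, of which 33 were found by symbol, and *Mut*, listed as *Mmut*, by its identifier ENSMUSG00000023921. All 34 passed the filter of a mean of at least 1 FPKM (fragments mapped to a gene, per kilobase of its length and per 1e6 fragments), as did 13618 genes of the whole table. RNA of whole hearts from 9 untreated wild-type C57BL/6J mice was sequenced, with 3 hearts labelled as biological replicates at each of E18.5d (late foetal), P1d and P7d (postnatal). All hearts are labelled male and each library is labelled as 1 replicate. The comparisons ask how the transcripts of these enzymes differ between the foetal and the neonatal heart, and the study assayed IDH2, SDHA and MDH2 as mitochondrial enzymes in further experiments.

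The TCA cycle oxidises the acetyl group of acetyl-CoA, which fatty acids, ketone bodies and pyruvate supply, and passes the electrons to the respiratory chain as NADH and through succinate dehydrogenase. Anaplerotic reactions refill the cycle's intermediates from pyruvate, glutamate and propionyl-CoA, and malic enzymes and phosphoenolpyruvate carboxykinase can draw intermediates out again. The mammalian heart depends strongly on mitochondrial oxidation, and after birth it turns from glucose and lactate towards fatty acids as fuel.

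The steps between low FPKM values gave depths of 25.25 to 44.75 in units of 1e6 fragments per heart, and the gene with the fewest fragments behind a value was *Sdhaf4*, with 158, which gives a counting error of 7.95%. The label male goes against the data in 4 hearts: *Xist* was at 82.6 and 97.0 FPKM in E18.5d replicates 1 and 3 and at 58.0 and 69.96 FPKM in P7d replicates 2 and 3, with all 4 Y-linked genes examined at 0, whereas the other 5 hearts, which include every P1d heart, had *Xist* at 0.02 to 0.11 FPKM. Genes of lung and airway summed to over 50 FPKM in 3 hearts (E18.5d replicates 1 and 2 and P1d replicate 1) and to at most 0.23 FPKM at P7d. The 6 cardiomyocyte markers summed to 16250 to 16864 FPKM at E18.5d, 18703 to 21284 at P1d and 20239 to 21229 at P7d, but not all moved one way: *Myh6* went from 3189 to 3260 FPKM at E18.5d to 7980 to 8564 at P7d, *Tnnt2* from 4278 to 4510 down to 2778 to 3198, and *Actc1* overlapped between these stages. The 6 fibroblast markers summed to 1963 to 2064, 1658 to 2202 and 2646 to 2732 FPKM in order of age, and the 5 endothelial markers to 331 to 367, 409 to 448 and 480 to 501 FPKM. Not all of these markers moved one way either. *Postn* went from 495 to 511 FPKM at E18.5d down to 405 to 483 at P7d, and *Pdgfra* overlapped between these stages. *Col1a1*, *Col1a2*, *Col3a1* and *Dcn* were higher in every P7d heart than in every E18.5d heart. *Kdr* was at 59.7 to 64.9 FPKM at E18.5d, 46.7 to 49.2 at P1d and 81.7 to 87.0 at P7d. The part of these cell types in the results was not tested. In bulk tissue, fewer cells of a type and less RNA per cell cannot be told apart.

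Measured per kilobase, the genes differed widely. The highest mean levels over the 9 hearts were those of *Mdh1* (1132 FPKM), *Idh2* (959 FPKM) and *Mdh2* (577 FPKM), and the lowest those of *Pcx* (4.30 FPKM), *Sdhaf1* (5.99 FPKM), *Me2* (7.43 FPKM) and *Pck2* (7.49 FPKM). As a share of the FPKM of all protein-coding nuclear genes, the 34 genes made up 1.22%, 1.25% and 1.22% in the E18.5d hearts, 1.36%, 1.34% and 1.35% in the P1d hearts and 1.504%, 1.53% and 1.46% in the P7d hearts. The stages did not overlap. A factor applied to a whole column leaves this share as it is, whereas quantile normalization, which shifts genes of different levels unequally, does not. The share is a sum led by the most abundant genes, so it says little of the low ones. Before division by that total, the 34 genes summed to 6117 to 6397 FPKM at E18.5d. They summed to 6700 to 7090 FPKM at P1d and 6607 to 7024 FPKM at P7d, so these 2 stages overlapped in the sum though not in the share.

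**Figure D1:**
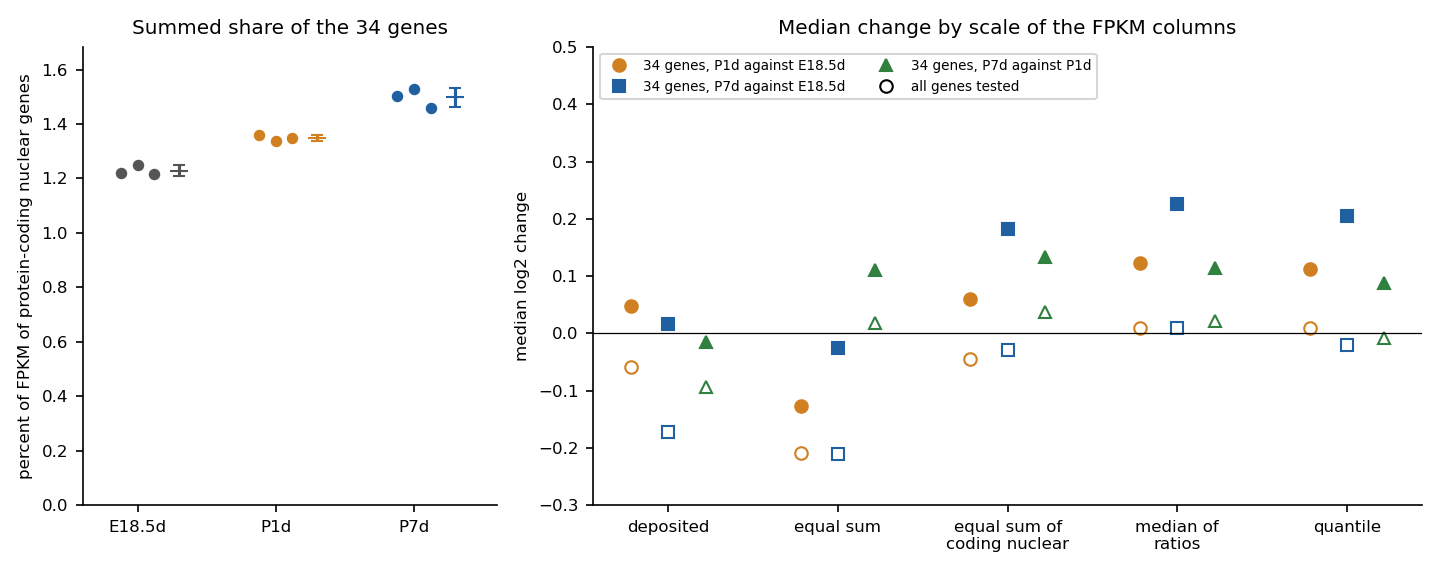
Left, summed FPKM of the 34 genes as a percent of the FPKM of protein-coding nuclear genes, with a point per heart and the mean with SD beside it (n = 3 hearts per stage). The E18.5d hearts sit at 1.22% to 1.25%, the P1d hearts at 1.34% to 1.36% and the P7d hearts at 1.46% to 1.53%. Right, median log2 change on the scale of log2(FPKM + 1), filled for the 34 genes and open for all genes tested, under 5 scalings of the columns. The median of the 34 genes lies above that of all genes under each scaling, while its sign changes with the scaling in all 3 comparisons.

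Between P1d and E18.5d, 9 of the 34 genes were higher at P1d, where 18.4% of all genes tested were, and 3 were lower, where 27.6% of all genes were (limma on log2(FPKM + 1), adjusted p under 0.05). The median log2 change of the 34 genes was 0.05, against -0.06 for all genes, and 27 of them lay above the median of all genes. The changes of at least 0.5 on the log2 scale in which the hearts of the stages did not overlap were those of *Me1*, *Me3* and *Idh3g*, which rose, and of *Me2*, which fell, so 3 genes rose so far against 8.03% of all genes and 1 fell so far against 13.5%. The other genes that rose were *Idh2*, *Sdha*, *Sdhd*, *Got2*, *Glud1* and *Pccb*, and the other genes that fell were *Pcx* and *Mut*. With the columns brought to an equal sum, only 3 genes were higher, and without the 4 hearts with *Xist*, which leaves 1 heart at E18.5d and at P7d so that the spread comes from the P1d hearts alone, 2 were higher (*Me1* and *Me3*) and 0 lower, with 2 lower at an unadjusted p under 0.05. That fit called 1.76% of all genes higher and 4.29% lower. Of all genes called in this comparison, 40.02% were higher with the deposited values, 19.95% with equal column sums and 51.6% after median-of-ratios scaling. With equal column sums 8.6% of all genes tested were higher. Small RNAs made up 53.3% to 62.3% of the column sums, so that scaling depends much on them. The calls of *Idh3g*, *Pcx*, *Me1*, *Me2*, *Me3* and *Mut* held on all 4 other scalings.

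Between P7d and E18.5d, 8 of the 34 genes were higher at P7d, where 12.5% of all genes tested were, and 5 were lower, where 36.9% of all genes were. The median log2 change was 0.02, against -0.17 for all genes, and 26 of the 34 lay above the median of all genes. The larger changes with hearts apart were the rises of *Me1*, *Me3* and *Ogdh*, 3 genes against 6.43% of all genes, and the fall of *Pcx*, 1 gene against 16.5%. The other genes that rose were *Cs*, *Idh3b*, *Dlst*, *Sdha* and *Mdh2*, and the others that fell were *Suclg2*, *Fh1*, *Me2* and *Mut*. Of all genes called in this comparison 25.4% were higher with the deposited values and 55.5% after median-of-ratios scaling, which moved the median of all genes to 0.01, and 17 of the 34 genes were then higher and 2 lower. Of all genes tested, 23.2% were then higher and 18.6% lower. Without the 4 hearts with *Xist*, 1 gene was higher (*Me3*) and 1 lower (*Pcx*), in a comparison of 1 heart with 1 that takes its spread from the P1d hearts. The calls of *Ogdh*, *Pcx*, *Me1*, *Me3* and *Mut* held on all 4 other scalings.

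Between P7d and P1d, 7 of the 34 genes were higher at P7d, where 15.5% of all genes tested were, and 10 were lower, where 28.6% of all genes were. The median log2 change was -0.02, against -0.09 for all genes, and 21 of the 34 lay above the median of all genes. The larger changes with hearts apart were the rises of *Me3* and *Ogdh*, 2 genes against 7.32% of all genes, and the falls of *Pcx* and *Pck2*, 2 genes against 11.7%. The other genes that rose were *Cs*, *Dlst*, *Mdh2*, *Me1* and *Me2*, and the others that fell were *Idh1*, *Idh2*, *Idh3g*, *Suclg2*, *Sdhb*, *Fh1*, *Glud1* and *Pccb*. Of all genes called, 35.1% were higher with the deposited values and between 50.8% and 59.6% on the other scalings. The balance within the 34 genes turned as well, to 8 higher and 5 lower with equal column sums, 15 and 7 with equal sums of protein-coding nuclear genes, 13 and 6 by median of ratios and 14 and 7 by quantile normalization. In the same order, 16.1% and 12.65%, 24.2% and 16.4%, 23.5% and 18.2%, and 21.1% and 20.5% of all genes tested were higher and lower. Without the 4 hearts with *Xist*, *Ogdh* alone of the 34 genes was called.

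**Figure D2:**
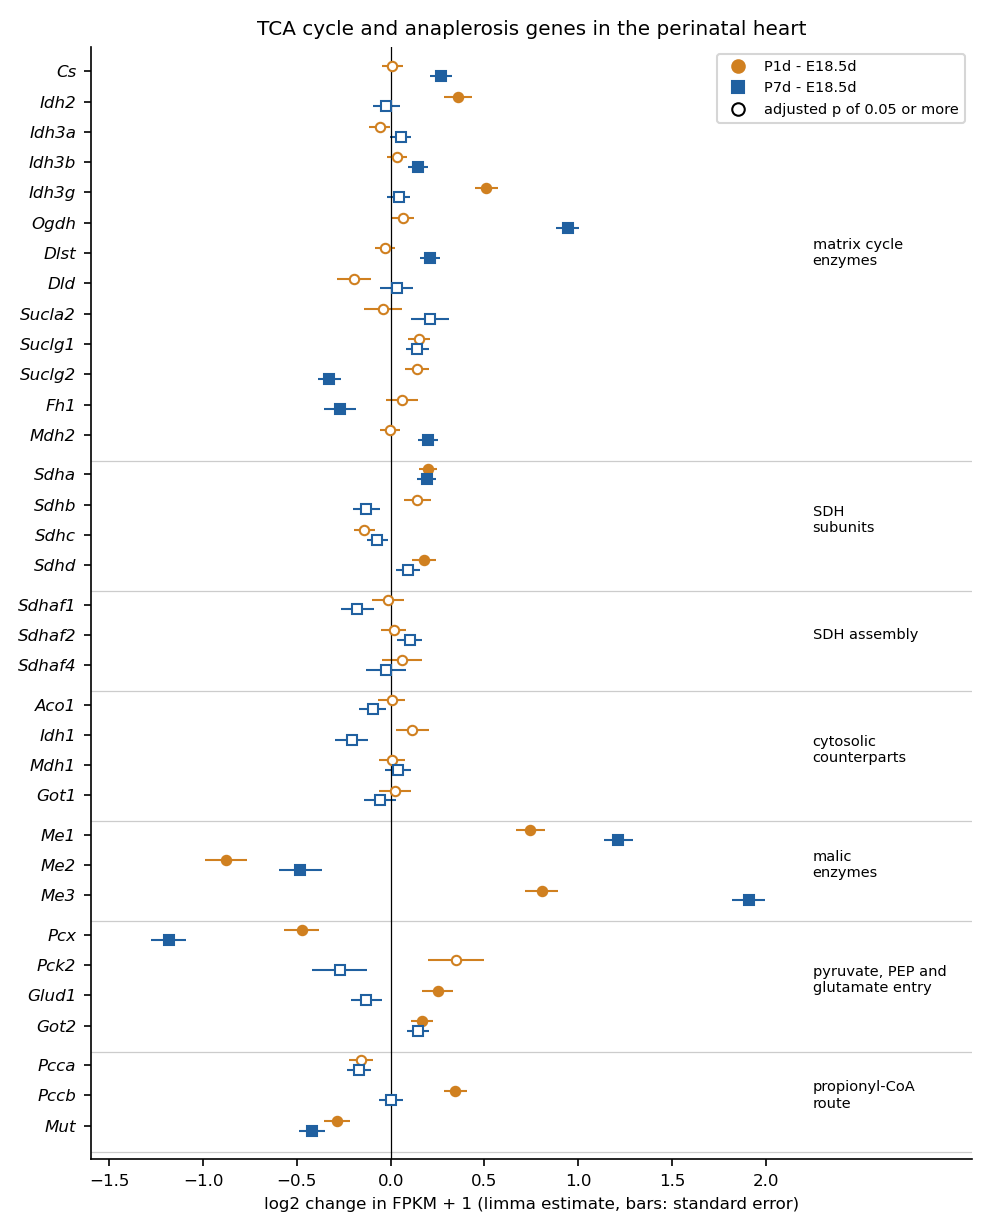
Log2 change of each of the 34 genes at P1d (circles) and P7d (squares) against E18.5d, on the scale of log2(FPKM + 1), with the limma standard error as bars and filled symbols for an adjusted p under 0.05. Genes are grouped by role. *Me1* and *Me3* lie to the right at both ages, *Pcx* to the left at both, *Ogdh* to the right at P7d alone, and *Idh3g* and *Idh2* to the right at P1d alone, though *Idh2* was also higher at P7d under quantile normalization (0.32) and *Idh3g* under that and 2 other scalings (0.21 to 0.25).

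Across the comparisons, 22 genes passed the threshold at least once, where 71.8% of all genes tested did, and 12 in none of them. The latter were *Aco1*, *Dld*, *Got1*, *Idh3a*, *Mdh1*, *Pcca*, *Sdhaf1*, *Sdhaf2*, *Sdhaf4*, *Sdhc*, *Sucla2* and *Suclg1*. With equal sums of protein-coding nuclear genes, median of ratios or quantile normalization, 7 of these 12 were called at least once (*Dld*, *Idh3a*, *Mdh1*, *Sdhaf2*, *Sdhc*, *Sucla2* and *Suclg1*), and 5 were called on none of the 4 other scalings (*Aco1*, *Got1*, *Pcca*, *Sdhaf1* and *Sdhaf4*). At P7d against E18.5d, for example, the change of *Suclg1* was then 0.31 to 0.35 (adjusted p of 0.00164 to 0.00403) and that of *Sucla2* 0.37 to 0.42 (adjusted p of 0.00811 to 0.0311), both higher. All calls were lost without the 4 hearts with *Xist* but those of *Me1* and *Me3* at P1d, *Me3* and *Pcx* at P7d against E18.5d, and *Ogdh* between P7d and P1d. Without the 3 hearts with airway genes, which leaves 1 heart at E18.5d, the lost calls were those of *Idh2*, *Sdha*, *Sdhd*, *Pcx*, *Got2*, *Glud1* and *Mut* at P1d, of *Idh3b*, *Dlst*, *Sdha*, *Fh1*, *Mdh2* and *Mut* at P7d against E18.5d, and of *Mdh2*, *Me2* and *Pck2* between P7d and P1d. Both P1d comparisons share the P1d hearts and both E18.5d comparisons share the E18.5d hearts, so the values of 1 gene in them are not independent of each other.

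Among the 13 matrix enzymes of the cycle other than succinate dehydrogenase, 2 were higher at P1d against E18.5d (18.4% of all genes were), and 5 were higher and 2 lower at P7d against E18.5d (12.5% and 36.9% of all genes). The largest change was that of *Ogdh* (ENSMUSG00000020456, chr11:6291633-6356642 of GRCm38), which encodes the decarboxylating component of the alpha-ketoglutarate dehydrogenase complex. Its levels were 274, 271 and 250.4 FPKM at E18.5d, 269, 289 and 273 FPKM at P1d, and 500.5, 538 and 494 FPKM at P7d. The foetal and P1d hearts overlapped, while every P7d heart lay above all of them. On the log2 scale the difference was 0.06 ± 0.06 (SE) at P1d (adjusted p = 0.416) and 0.94 ± 0.06 at P7d against E18.5d (adjusted p = 4.07e-06), a ratio of means of 1.93, with 3 hearts per stage. From P1d to P7d it rose by 0.88 (adjusted p = 1.44e-05). Without the 4 hearts with *Xist* the change at P7d against E18.5d was 0.88, with an adjusted p of 0.0569.

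The partners of OGDH in the complex changed less at P7d. *Dlst*, the succinyltransferase component, had means of 158, 155 and 183 FPKM in order of age, with a log2 change of 0.21 at P7d against E18.5d (adjusted p = 0.00972). This call was lost with the columns at an equal sum, where it was 0.17 (adjusted p = 0.196). *Dld*, the dihydrolipoamide dehydrogenase that the pyruvate dehydrogenase complex also uses, had means of 123, 108 and 126 FPKM and passed the threshold in none of the comparisons, though at P7d against P1d it did on 3 other scalings (0.32 to 0.38, adjusted p of 0.0133 to 0.0398). Within each heart, the ratio of *Dlst* to *Ogdh* was 0.584 to 0.603 at E18.5d, 0.525 to 0.581 at P1d and 0.355 to 0.365 at P7d. The ratio of *Dld* to *Ogdh* was 0.442 to 0.508, 0.325 to 0.453 and 0.233 to 0.256. The P7d hearts lay below all others in both ratios, and an exact two-sided permutation test of each gave p = 0.1 against either other stage, the smallest that 3 hearts against 3 allow.

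*Idh3g* (ENSMUSG00000002010, chrX:73778963-73786897), a regulatory subunit of the NAD-dependent isocitrate dehydrogenase, was high at P1d alone in the deposited values. Its levels were 240.3, 244 and 230.3 FPKM at E18.5d, 339, 361 and 319.6 FPKM at P1d, and 239, 255 and 241 FPKM at P7d. All P1d hearts lay above all other hearts. In the limma fit the log2 change was 0.51 ± 0.06 (SE) at P1d against E18.5d (adjusted p = 0.000158), 0.04 at P7d against E18.5d (adjusted p = 0.594), and -0.47 at P7d against P1d (adjusted p = 0.000314). At P7d against E18.5d it was higher with equal sums of protein-coding nuclear genes, median of ratios and quantile normalization (0.21 to 0.25, adjusted p of 0.00818 to 0.0109). The gene lies on the X chromosome, and all P1d hearts lack *Xist*. In the 2 other hearts that lack it, *Idh3g* was at 244 FPKM (E18.5d replicate 2) and 239 FPKM (P7d replicate 1), and with these 5 hearts alone the change at P1d was 0.48 (adjusted p = 0.0801).

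The other subunits of that enzyme differed less. *Idh3a*, the catalytic subunit, had means of 154, 148 and 160.0 FPKM in order of age and passed the threshold in none of the comparisons, though at P7d against E18.5d it was higher on 3 other scalings (0.21 to 0.26, adjusted p of 0.00603 to 0.022). *Idh3b* had means of 165, 169 and 182 FPKM and was higher at P7d against E18.5d by 0.15 (adjusted p = 0.0416), a call that leaving out any 1 of the E18.5d or P7d hearts removed (adjusted p of 0.0663 to 0.126). The ratio of *Idh3g* to *Idh3a* within a heart was 1.51 to 1.58 at E18.5d, 2.06 to 2.55 at P1d and 1.51 to 1.55 at P7d.

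*Idh2* (ENSMUSG00000030541, chr7:80094846-80115392), the mitochondrial NADP-dependent isocitrate dehydrogenase, had the highest level of the matrix enzymes and a similar course. Its levels were 884, 897 and 859 FPKM at E18.5d, 1119, 1236 and 1038 FPKM at P1d, and 911, 846 and 841 FPKM at P7d. The P1d hearts lay above all others, and the E18.5d and P7d hearts overlapped. The log2 change was 0.36 ± 0.07 (SE) at P1d against E18.5d (adjusted p = 0.00339), -0.02 at P7d against E18.5d (adjusted p = 0.813) and -0.38 at P7d against P1d (adjusted p = 0.00267). The scaling of the columns matters for this gene: the P1d change was 0.18 (adjusted p = 0.0949) with equal column sums, and under quantile normalization the P7d change against E18.5d was 0.32 (adjusted p = 0.00568) and that against P1d -0.01 (adjusted p = 0.926). The ratio of *Idh2* to *Idh3a* within a heart, which a factor on the whole column cannot change but quantile normalization can, was 5.56 to 5.81 at E18.5d, 6.70 to 8.74 at P1d and 5.16 to 5.76 at P7d.

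*Mdh2* (ENSMUSG00000019179, chr5:135778480-135790398), the mitochondrial malate dehydrogenase, was higher at P7d. Its levels were 546, 563 and 541 FPKM at E18.5d, 541, 541 and 564 FPKM at P1d, and 631, 656 and 606 FPKM at P7d. All P7d hearts lay above all others. On the log2 scale the difference was -0.00 ± 0.05 (SE) at P1d against E18.5d (adjusted p = 0.971), 0.20 at P7d against E18.5d (adjusted p = 0.0133) and 0.20 at P7d against P1d (adjusted p = 0.0142). The first call at P7d was lost with equal column sums (0.15, adjusted p = 0.203), and both were lost without P7d replicate 2 (0.17 in each, adjusted p of 0.0521 and 0.0549). Its ratio to *Mdh1*, the cytosolic malate dehydrogenase, was 0.488 to 0.494 at E18.5d, 0.452 to 0.512 at P1d and 0.531 to 0.564 at P7d.

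**Figure D3:**
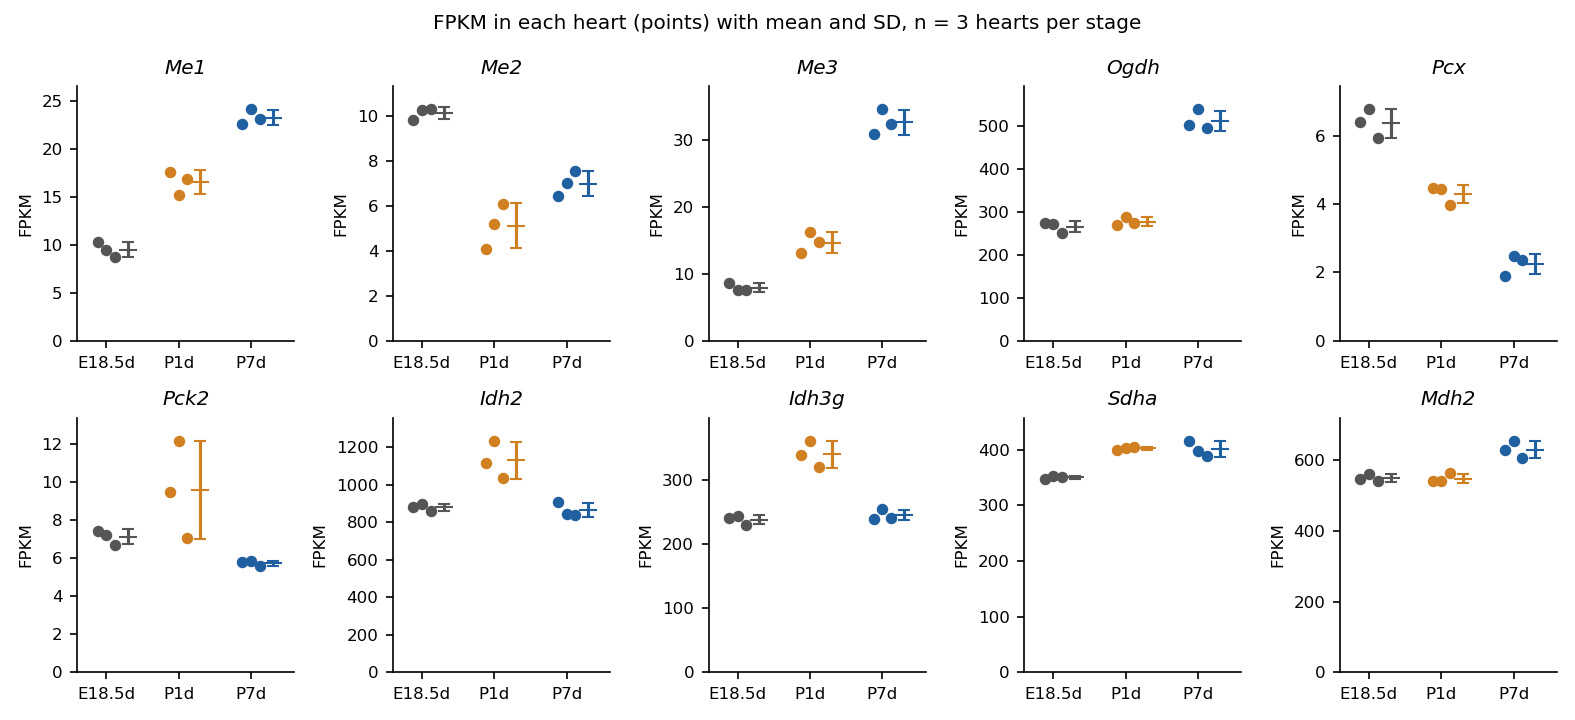
FPKM of 10 genes in each heart (points) with the mean and SD of 3 hearts per stage beside them, on linear axes from 0. *Me1* and *Me3* stand higher at each later stage, *Pcx* lower, *Ogdh* stands apart at P7d, with 494 to 538 FPKM, and *Idh2* and *Idh3g* are highest at P1d. These are the deposited values, and the direction of *Idh2* at P7d changes under quantile normalization.

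The remaining matrix enzymes went in different directions. *Cs*, citrate synthase, which joins acetyl-CoA to oxaloacetate, had means of 350, 352 and 422 FPKM and was higher at P7d against E18.5d by 0.27 (adjusted p = 0.00393) and than at P1d by 0.26 (adjusted p = 0.00561). The first of these was lost with equal column sums (0.22, adjusted p = 0.0719) and both without the 4 hearts with *Xist* (0.20 and 0.25, adjusted p of 0.391 and 0.214). *Fh1*, fumarase, had means of 136, 142 and 112 FPKM and was lower at P7d against E18.5d by 0.27 (log2 change -0.27, adjusted p = 0.0241). That call was lost on 3 other scalings, with values of -0.06 to -0.12, and without E18.5d replicate 1, P7d replicate 1 or P7d replicate 3, each alone, with adjusted p of 0.0517 to 0.0884. Succinyl-CoA ligase makes ATP or GTP according to its beta subunit. *Suclg2*, the GTP-forming beta subunit, was at 48.9, 44.9 and 47.9 FPKM at E18.5d, 54.1, 53.2 and 49.1 FPKM at P1d and 39.3, 36.4 and 36.6 FPKM at P7d. Every P7d heart lay below all others, with a log2 change of -0.33 against E18.5d (adjusted p = 0.00205), lost on 2 other scalings, and -0.47 against P1d (adjusted p = 0.000369), held on all of them. *Sucla2*, the ATP-forming beta subunit, had means of 135, 132 and 157 FPKM and *Suclg1*, the shared alpha subunit, 136, 151 and 149.9 FPKM, and neither passed the threshold with the deposited values. The ratio of *Sucla2* to *Suclg2* within a heart was 2.71 to 3.05 at E18.5d, 2.16 to 2.96 at P1d and 3.87 to 4.46 at P7d.

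**Figure D4:**
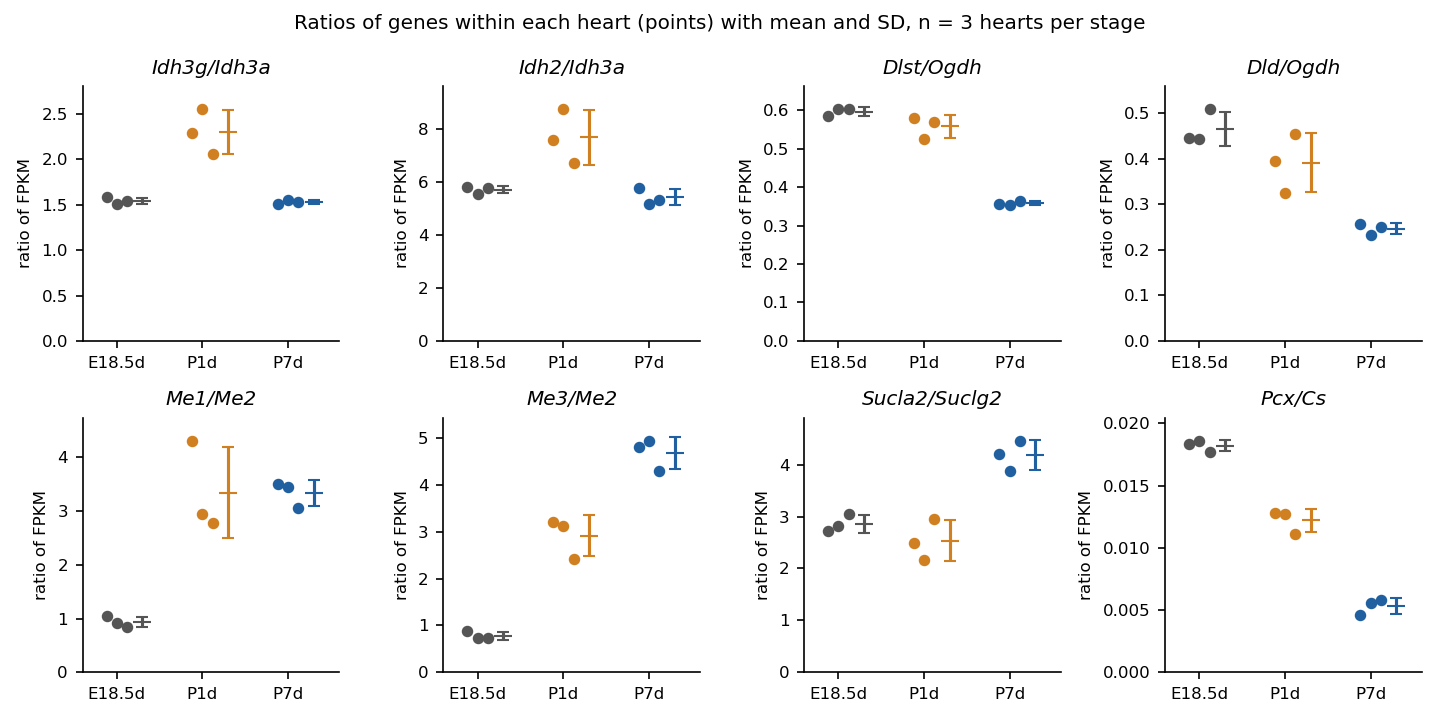
Ratios of the FPKM of pairs of genes within each heart (points) with the mean and SD of 3 hearts per stage beside them, on linear axes from 0. The *Idh3g* to *Idh3a* and *Idh2* to *Idh3a* ratios are highest at P1d, *Dlst* and *Dld* against *Ogdh* are lowest at P7d, and *Me3* against *Me2* goes from 0.74 to 0.88 at E18.5d to 4.29 to 4.94 at P7d.

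Succinate dehydrogenase, which is also complex II of the respiratory chain, has 4 subunits, of which 2 were higher at P1d, where 18.4% of all genes were, and 1 at P7d against E18.5d, where 12.5% were. *Sdha* (ENSMUSG00000021577, chr13:74322254-74350280), the flavoprotein with the succinate site, was at 348, 353 and 352 FPKM at E18.5d, 399.7, 404 and 404 FPKM at P1d, and 417, 398 and 389 FPKM at P7d. All postnatal hearts lay above all E18.5d hearts, and the P1d and P7d hearts overlapped. In the limma fit the log2 change was 0.20 ± 0.05 (SE) at P1d (adjusted p = 0.00897) and 0.19 ± 0.05 at P7d (adjusted p = 0.00981) against E18.5d. With equal column sums these were 0.02 (adjusted p = 0.851) and 0.15 (adjusted p = 0.222), and with a covariate for *Xist* the P1d change was 0.17 (adjusted p = 0.083). Between P7d and P1d the log2 change of *Sdha* was -0.01 (adjusted p = 0.928), and it was 0.15 (adjusted p = 0.046) at equal sums of protein-coding nuclear genes and 0.18 (adjusted p = 0.0373) under quantile normalization.

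The other subunits were *Sdhb*, the iron-sulfur protein, with means of 379.9, 418 and 346 FPKM, and the membrane anchors *Sdhc*, with 149.7, 136 and 142 FPKM, and *Sdhd*, with 264, 298 and 282 FPKM. *Sdhd* was higher at P1d against E18.5d by 0.18 (adjusted p = 0.0482), which was lost in 8 of the 9 fits that leave out 1 heart (adjusted p of 0.0564 to 0.131). At P7d against E18.5d its change was 0.09 (adjusted p = 0.263) with the deposited values. With equal sums of protein-coding nuclear genes, median of ratios and quantile normalization it was higher (0.26 to 0.30, adjusted p of 0.00551 to 0.00792). *Sdhb* was lower at P7d than at P1d (log2 change -0.27, adjusted p = 0.0147), which was lost on all 4 other scalings and without P7d replicate 3 (adjusted p = 0.0555). Within each heart *Sdhb* stood at 0.969 to 1.17 of *Sdha* at E18.5d, 1.02 to 1.08 at P1d and 0.850 to 0.888 at P7d, and *Sdhc* at 0.418 to 0.433, 0.321 to 0.359 and 0.337 to 0.365. Of the 3 assembly factors, *Sdhaf1*, which serves the iron-sulfur subunit, had means of 6.29, 6.23 and 5.45 FPKM, *Sdhaf2*, which is needed to attach the flavin to SDHA, 9.83, 9.94 and 10.6 FPKM, and *Sdhaf4* 12.1, 12.6 and 11.9 FPKM. None of the 3 passed the threshold in a comparison, but *Sdhaf2* was higher at P7d against E18.5d on 3 other scalings (0.25 to 0.29, adjusted p of 0.0099 to 0.0193). The exons of *Sdhaf1* overlap those of an opposite-strand gene, *E130208F15Rik*, over 69.6% of their length, and that gene had at most 0.02 FPKM.

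The malic enzymes, which convert malate to pyruvate, were the group with the largest changes: 2 of 3 were higher and 1 lower at both postnatal stages than at E18.5d, where 18.4% of all genes were higher and 27.6% lower at P1d and 12.5% and 36.9% at P7d. *Me3* (ENSMUSG00000030621, chr7:89632392-89854359), a mitochondrial NADP-dependent malic enzyme, was at 8.72, 7.57 and 7.61 FPKM at E18.5d, 13.1, 16.2 and 14.7 FPKM at P1d, and 31.0, 34.7 and 32.4 FPKM at P7d. The stages did not overlap. The log2 change was 0.80 ± 0.09 (SE) at P1d against E18.5d (adjusted p = 0.000108), 1.91 ± 0.09 at P7d against E18.5d (adjusted p = 6.13e-07), a ratio of means of 4.10, and 1.105 ± 0.09 at P7d against P1d (adjusted p = 2.85e-05). All 3 of these calls held in every alternative that keeps at least 2 hearts of each stage. Without the 4 hearts with *Xist*, which leaves 1 heart at E18.5d and at P7d, the third was lost, with a change of 1.03.

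*Me1* (ENSMUSG00000032418, chr9:86581371-86695953), the cytosolic NADP-dependent malic enzyme that supplies NADPH for lipid synthesis, took the same direction. It was at 10.3, 9.46 and 8.72 FPKM at E18.5d, 17.7, 15.3 and 16.9 FPKM at P1d, and 22.6, 24.2 and 23.1 FPKM at P7d. The stages did not overlap here either. On the log2 scale the difference was 0.74 ± 0.08 (SE) at P1d against E18.5d (adjusted p = 7.63e-05), 1.21 ± 0.08 at P7d against E18.5d (adjusted p = 3.73e-06) and 0.47 ± 0.08 at P7d against P1d (adjusted p = 0.00123). The latter calls were lost without the 4 hearts with *Xist*, at 1.17 (adjusted p = 0.0523) and 0.43 (adjusted p = 0.143).

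*Me2* (ENSMUSG00000024556), the mitochondrial malic enzyme that prefers NAD, went the other way. It was at 9.86, 10.3 and 10.3 FPKM at E18.5d, 4.10, 5.19 and 6.09 FPKM at P1d, and 6.44, 7.02 and 7.55 FPKM at P7d. All P1d hearts lay below all P7d hearts, and these below all E18.5d hearts. In the limma fit the log2 change was -0.88 ± 0.11 (SE) at P1d against E18.5d (adjusted p = 0.000267), -0.48 ± 0.11 at P7d against E18.5d (adjusted p = 0.00657) and 0.40 ± 0.11 at P7d against P1d (adjusted p = 0.019). The second call was lost after median-of-ratios scaling (-0.29, adjusted p = 0.0727), and the third without P7d replicate 2 (adjusted p = 0.0528) or P7d replicate 3 (adjusted p = 0.0681), with a covariate for *Xist* (0.35, adjusted p = 0.102) and without the 3 hearts with airway genes (0.27, adjusted p = 0.109). Without the 4 hearts with *Xist* the changes were -0.89, -0.60 and 0.29, and none passed (adjusted p of 0.0758, 0.246 and 0.441).

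The balance of the malic enzymes within a heart differed between the stages. The ratio of *Me1* to *Me2* was 0.845 to 1.05 at E18.5d, 2.77 to 4.30 at P1d and 3.06 to 3.51 at P7d. The ratio of *Me3* to *Me2* was 0.736 to 0.884, 2.42 to 3.20 and 4.29 to 4.94, and that of *Me3* to *Me1* 0.8002 to 0.873, 0.742 to 1.06 and 1.37 to 1.43. *Me1* and *Me2* were thus at similar levels per kilobase in the foetal heart, and *Me3* was the highest of the group in every P7d heart. The 5 brown fat markers summed to 6.13 to 7.77 FPKM at E18.5d, 25.9 to 26.3 at P1d and 33.6 to 38.9 at P7d. *Cidea* made up most of this sum, and the markers did not all rise with *Me1* and *Me3*. The defining marker *Ucp1* was at 0 in every E18.5d heart. It was at 0.05, 0 and 1.31 FPKM at P1d and at 5.77 to 7.26 FPKM at P7d. *Adipoq* fell from 1.91 to 3.09 FPKM at P1d to 0.86 to 1.01 FPKM at P7d. *Plin1* overlapped between P1d and P7d, and *Elovl3* was at 0.06 FPKM or less in every heart. The part of brown fat in the malic enzyme changes was not tested.

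Of the 4 enzymes through which pyruvate, phosphoenolpyruvate and glutamate meet the cycle, 2 were higher and 1 lower at P1d, and 1 was lower at P7d, than at E18.5d, where 18.4% of all genes were higher and 27.6% lower at P1d and 36.9% lower at P7d. *Pcx* (ENSMUSG00000024892, chr19:4510472-4621752), pyruvate carboxylase, the classical anaplerotic enzyme that makes oxaloacetate from pyruvate, was the least expressed of the 34 genes and had the largest fall at P7d against E18.5d. It was at 6.39, 6.77 and 5.92 FPKM at E18.5d, 4.47, 4.43 and 3.98 FPKM at P1d, and 1.91, 2.47 and 2.35 FPKM at P7d. The stages did not overlap. The log2 change was -0.48 ± 0.09 (SE) at P1d against E18.5d (adjusted p = 0.00277), -1.18 ± 0.09 at P7d against E18.5d (adjusted p = 1.39e-05), a ratio of means of 0.353, and -0.71 ± 0.09 at P7d against P1d (adjusted p = 0.000358). The ratio of *Pcx* to *Cs* within a heart, which sets the entry of pyruvate as oxaloacetate beside the entry of acetyl-CoA, was 0.0177 to 0.0186 at E18.5d, 0.0111 to 0.0128 at P1d and 0.00456 to 0.00583 at P7d. Without the 4 hearts with *Xist* the *Pcx* changes at P1d and between P7d and P1d were -0.56 and -0.86 (adjusted p of 0.0912 and 0.0643), and without the 3 hearts with airway genes the P1d change was -0.41 (adjusted p = 0.125).

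RefSeq promoters (GRCm38.p6, 250 bases before to 50 bases after a start) were at hand for 30 of the 34 genes, and 4 motifs were looked for in them on both strands. AAGGTCA, the core of the response element of oestrogen-related receptors, was found for *Got1*, *Ogdh* and *Sdhd* and in the promoters of 5.38% of all 27025 genes, and the longer TCAAGGTCA, which holds that core, for *Sdhd* and 0.466% of genes. GCGCATGCG, the motif of nuclear respiratory factor NRF-1, was found for *Ogdh* and *Pccb* and 1.95% of genes, and the E-box CACGTG for *Ogdh* and *Pcx* and 8.09% of genes. The number of promoters entered differs between genes, and *Ogdh* has 6. Shown here are the matches that lie before the start and outside annotated exons, for *Pcx*, which fell at each stage, and for *Got1*, the cytosolic aspartate aminotransferase, which passed the threshold in no comparison. The motif is in capitals, from 5′ to 3′ on the strand of the gene, at chr19:4510222-4510259 (plus strand) and chr19:43524814-43524855 (minus strand).
Pcx: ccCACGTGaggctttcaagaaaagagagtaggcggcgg
Got1: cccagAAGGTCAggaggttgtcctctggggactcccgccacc
A match says only that these letters stand there.

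*Pck2* (ENSMUSG00000040618, chr14:55540266-55551242), the mitochondrial phosphoenolpyruvate carboxykinase, was at 7.46, 7.26 and 6.73 FPKM at E18.5d, 9.51, 12.2 and 7.05 FPKM at P1d, and 5.79, 5.86 and 5.58 FPKM at P7d. The P1d hearts were spread widely and overlapped the E18.5d hearts, and all P7d hearts lay below all others. On the log2 scale the difference was 0.35 ± 0.15 (SE) at P1d against E18.5d (adjusted p = 0.0808), -0.27 ± 0.15 at P7d against E18.5d (adjusted p = 0.154) and -0.62 ± 0.15 at P7d against P1d (adjusted p = 0.00817). Without the 3 hearts with airway genes the last was -0.61 (adjusted p = 0.069).

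*Glud1*, glutamate dehydrogenase, which turns glutamate into alpha-ketoglutarate, was at 50.7, 48.1 and 52.2 FPKM at E18.5d, 52.0, 64.4 and 64.5 FPKM at P1d, and 46.4, 46.8 and 44.5 FPKM at P7d. It was lower at P7d than at P1d (log2 change -0.38, adjusted p = 0.00545), which was lost with equal column sums (-0.25, adjusted p = 0.0645), by median of ratios (-0.25, adjusted p = 0.0529) and without the 4 hearts with *Xist* (-0.37, adjusted p = 0.234). Its rise at P1d against E18.5d (0.25, adjusted p = 0.034) came with overlapping hearts and was lost with equal column sums (adjusted p = 0.513), with a covariate for *Xist* (adjusted p = 0.0851), and without any 1 of the E18.5d hearts or of P1d replicates 2 and 3 (adjusted p of 0.0519 to 0.109). *Got2*, the mitochondrial aspartate aminotransferase of the malate-aspartate shuttle, had means of 267, 299.96 and 296 FPKM and was higher at P1d against E18.5d by 0.17 (adjusted p = 0.0386). With equal column sums that difference was -0.01 (adjusted p = 0.957), and without any 1 of the E18.5d hearts, P1d replicates 2 and 3 or P7d replicate 1 its adjusted p was 0.0507 to 0.105. At P7d against E18.5d the change of *Got2* was 0.15 (adjusted p = 0.0595) with the deposited values. With equal sums of protein-coding nuclear genes, median of ratios and quantile normalization it was higher (0.31 to 0.36, adjusted p of 0.000482 to 0.00192).

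Of the 4 cytosolic counterparts, 1 passed the threshold, in 1 comparison, where 71.8% of all genes tested passed it in at least 1. *Mdh1*, the malate dehydrogenase of the shuttle and the most highly expressed of the 34 genes, had means of 1119, 1126 and 1151 FPKM, and *Got1*, its partner aminotransferase, 173, 177 and 166 FPKM. *Aco1*, the cytosolic aconitase that also acts as an iron regulatory protein, had means of 25.2, 25.3 and 23.5 FPKM. None of these passed the threshold in a comparison. At P7d against E18.5d the change of *Mdh1* was 0.04 (adjusted p = 0.664) with the deposited values, and with equal sums of protein-coding nuclear genes, median of ratios and quantile normalization it was higher, by 0.21, 0.25 and 0.39 (adjusted p of 0.0151, 0.0252 and 0.000717). *Idh1*, the cytosolic NADP-dependent isocitrate dehydrogenase, had means of 27.3, 29.7 and 23.5 FPKM and was lower at P7d than at P1d (log2 change -0.32, adjusted p = 0.0145), which was lost on all 4 other scalings (adjusted p of 0.0645 to 0.162) and without P7d replicate 2 (adjusted p = 0.0518).

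The propionyl-CoA route brings the end products of odd-chain fatty acids and of some amino acids into the cycle as succinyl-CoA. *Pccb*, the beta subunit of propionyl-CoA carboxylase, was at 37.8, 38.2 and 35.7 FPKM at E18.5d, 45.3, 50.5 and 46.8 FPKM at P1d, and 37.7, 38.6 and 35.5 FPKM at P7d. The P1d hearts lay above all others, with log2 changes of 0.34 at P1d against E18.5d (adjusted p = 0.00172) and -0.34 at P7d against P1d (adjusted p = 0.00201), both lost with equal column sums (adjusted p of 0.102 and 0.0673). At P7d against E18.5d *Pccb* was not called with the deposited values. With equal sums of protein-coding nuclear genes, median of ratios and quantile normalization it was higher (0.16 to 0.21, adjusted p of 0.0288 to 0.0425). *Pcca*, the alpha subunit, had means of 15.4, 13.7 and 13.6 FPKM and passed the threshold in no comparison, and the ratio of *Pccb* to *Pcca* was 2.33 to 2.51 at E18.5d, 3.03 to 3.90 at P1d and 2.599 to 2.86 at P7d. *Mut*, methylmalonyl-CoA mutase, which makes succinyl-CoA, was at 23.8, 22.2 and 21.8 FPKM at E18.5d, 18.3, 19.5 and 17.2 FPKM at P1d, and 17.7, 15.9 and 16.4 FPKM at P7d. It was lower at P1d by 0.29 (log2 change -0.29, adjusted p = 0.00808) and at P7d by 0.42 (log2 change -0.42, adjusted p = 0.00099) than at E18.5d, and both calls held on all scalings. Both were lost without the 4 hearts with *Xist* (-0.26 and -0.31, adjusted p of 0.233 and 0.283) and without the 3 hearts with airway genes (-0.24 and -0.37, adjusted p of 0.215 and 0.0646).

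*Glud1*, *Idh2*, *Idh3g* and *Pccb* were thus the 4 genes called both higher at P1d against E18.5d and lower at P7d than at P1d. *Me2* was the 1 gene called lower at P1d and higher again at P7d. *Cs*, *Dlst*, *Mdh2* and *Ogdh* were called higher at P7d than at either other stage and not called between P1d and E18.5d.

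Of 26 further genes of the pathway that were looked for, 23 passed the filter. In those, 5 were higher and 3 lower at P1d against E18.5d, 4 higher and 8 lower at P7d against E18.5d, and 3 higher and 11 lower at P7d than at P1d. Of all genes tested, 18.4% and 27.6%, 12.5% and 36.9%, and 15.5% and 28.6% were higher and lower in these comparisons. The 8 lower at P7d against E18.5d, 34.8% of the 23, are near the share of all genes. The largest rises at P1d were those of *Glul*, glutamine synthetase (log2 change 1.85, adjusted p = 0.000601), and *Pck1*, the cytosolic phosphoenolpyruvate carboxykinase (1.45, adjusted p = 0.000174). *Glul* was at 46.8 to 52.8 FPKM at E18.5d, 101 to 259 FPKM at P1d and 76.7 to 84.3 FPKM at P7d, and fell from P1d to P7d by 1.14 (adjusted p = 0.00882). *Pck1* stayed low, at 0.06 to 0.16, 1.49 to 2.98 and 0.96 to 1.27 FPKM. The largest falls at P1d were those of *Abat* (-0.65, adjusted p = 0.000959) and of *Mmaa*, which serves the cobalamin cofactor of MUT (-0.59, adjusted p = 0.000531).

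At P7d against E18.5d, the alanine aminotransferases *Gpt* (log2 change 1.24, adjusted p = 3.35e-05) and *Gpt2* (1.20, adjusted p = 8.5e-05) rose most, from 1.36 to 1.78 FPKM to 4.57 to 5.59 FPKM and from 2.46 to 2.79 FPKM to 7.17 to 7.46 FPKM. They were also the largest rises at P7d against P1d (1.15 and 0.86). The largest falls at P7d against E18.5d were those of *Abat* (-1.99, adjusted p = 1.25e-06) and *Aldh5a1* (-0.62, adjusted p = 0.000207), which encode the enzymes that turn the neurotransmitter GABA into succinate. *Abat* was at 13.5 to 16.2 FPKM at E18.5d, 7.67 to 10.3 FPKM at P1d and 2.74 to 3.05 FPKM at P7d, with no overlap between stages.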

How the data were processed

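The 9 C57BL/6J hearts sequenced (RNA-seq) were 3 each at E18.5d, P1d and P7d, grouped by stage as their labels give it. The authors deposited FPKM values to 2 decimals in 1 table, each heart in its own column. The submitters' processing notes name STAR, GRCm38 and mm10; the counting tool, the annotation and whether the counting used strand are not given in the sources used here. Positions and names come from GENCODE M21 of GRCm38, which holds 48058 of the 48820 identifiers. Without strand, reads of 11 genes of the list that overlap exons of an opposite-strand gene cannot be told apart from that gene's reads.

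The values were transformed to log2(FPKM + 1), which understates the change of low genes. A limma fit (version 3.58.1, R 4.3.3, with a trended eBayes prior and no covariates) covered the hearts of all 3 stages and the 13618 genes whose mean reached 1 FPKM, with Benjamini-Hochberg adjustment over all genes and a threshold of 0.05. Adjusted p-values in the text are from this fit or from the alternative named beside them. The limma p-values set the difference between stages against the spread between hearts of the same stage, pooled over all 3 stages in the main fit. At E18.5d and P7d that spread includes the difference between hearts with and without *Xist*. Ratios within a heart were tested with exact permutation tests (Python 3.11.15, scipy 1.17.1, pandas 2.3.3, numpy 2.4.6). Figures were drawn with matplotlib 3.10.9. Tested on simulated data of 13618 genes, the fit called 56 of 100 genes changed by 0.5 and 87 of 100 changed by 1 on the log2 scale at P7d against E18.5d, with 11 unchanged genes called. No other genes were changed there, and the noise was drawn independently for each gene and heart. In the data 1706 genes were called higher and 5025 lower in that comparison. The adjustment is stricter where fewer genes change, so these rates do not give the power of the fit on the data.

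Since FPKM hold no counts, depth was estimated by fitting steps to low values, of which 81.1% to 86.4% were whole multiples of 1 fragment, against 13.0% to 15.0% by chance. The FPKM columns summed to 1347981 to 1794160. The small RNAs *Rn7s1*, *Rn7s2*, *Rn7sk*, *Rpph1* and *Rmrp* made up 53.3% to 62.3% of each sum. Their share was highest in P1d replicate 2, which also had the largest sum. Scaling to equal column sums therefore depends much on these RNAs.

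The 34 genes, the further pathway genes, the markers and the tests were chosen with earlier results of these data known. Named in full were *Idh2*, *Sdha*, *Mdh2* and, in each comparison, the called genes that moved by 0.5 or more on the log2 scale without overlap between the hearts of both stages; of the further genes, the 2 largest changes in each direction. Values of some of the further genes are not reported here. Other settings tried were leaving out each heart in turn, a covariate for *Xist*, the replicate number as a block, a fit of only the stages compared, an untrended prior, quantile normalization or median of ratios, columns brought to an equal sum (of all or of protein-coding nuclear genes), a filter at 5 FPKM or none, and 0.1 as pseudocount. Leaving out the 4 hearts with *Xist* above 1 FPKM, or the 3 with airway genes over 50 FPKM, was added after seeing the data.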

Additional observations from a re-analysis of the deposited data

How the results depend on the processing

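Both the scaling of the FPKM columns and leaving out the hearts with *Xist* moved the counts by over 1.5 times. At P1d against E18.5d, where 9 of the 34 genes were higher and 3 lower, 3 were higher with equal column sums and 5 with a covariate for *Xist*. Without the 4 hearts with *Xist* 2 were higher and 0 lower (limma, with 2 lower at an unadjusted p under 0.05), and without the 3 hearts with airway genes 4 were higher and 1 lower. The median of 0.05 became -0.13 with equal column sums, 0.12 by median of ratios, 0.11 by quantile normalization and 0.0856 without the airway hearts. Of all genes tested, 8.6% were higher with equal column sums and 11.8% with a covariate for *Xist*. At P7d against E18.5d, where 8 were higher and 5 lower, 3 were higher with equal column sums, 17 and 3 (higher and lower) with equal sums of protein-coding nuclear genes, 17 and 2 by median of ratios, and 18 were higher by quantile normalization. Fitting only the 2 stages gave 8 lower, and 1 and 1 were called without the hearts with *Xist* and 4 and 3 without the airway hearts. The median of 0.02 became -0.0265 with equal column sums, 0.18 with equal sums of protein-coding nuclear genes, 0.23 by median of ratios, 0.20 by quantile normalization and -0.0231 without the hearts with *Xist*. At P7d against P1d, where 7 were higher and 10 lower, 15, 13 and 14 were higher with equal sums of protein-coding nuclear genes, median of ratios and quantile normalization, and 5 and 6 were lower with equal column sums and median of ratios. Without the hearts with *Xist* 1 was higher and 0 lower (limma, with 4 lower at an unadjusted p under 0.05). The median of -0.02 became 0.11, 0.13, 0.11 and 0.0873 with equal column sums, equal sums of protein-coding nuclear genes, median of ratios and quantile normalization. On these scalings, in the same order, 16.1%, 24.2%, 23.5% and 21.1% of all genes tested were higher and 12.65%, 16.4%, 18.2% and 20.5% lower.

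Leaving out each heart in turn gave 6 to 9 higher, 3 to 4 lower and a median of 0.0297 to 0.0734 at P1d against E18.5d, 6 to 9 higher and 4 to 7 lower at P7d against E18.5d, and 6 to 9 higher and 9 to 11 lower at P7d against P1d. Of the genes called in either fit, the sign turned for *Got2* at P1d against E18.5d with equal column sums (-0.0062), for *Idh2* at P7d against E18.5d by quantile normalization (0.32), and at P7d against P1d for *Sdha* with equal sums of protein-coding nuclear genes (0.15) and by quantile normalization (0.18) and for *Got2* by quantile normalization (0.15). It also turned in 147 of the 1235 values of single genes called in neither fit. Of the 23 further pathway genes, 11 were lower at P7d than at P1d and 4 with equal column sums, 7 without P1d replicate 1 or P7d replicate 2, and 6 without the airway hearts. Of their other counts, the 8 lower at P7d against E18.5d became 4 on 3 scalings, the 4 higher became 7 by median of ratios and 2 with a mean of at least 5 FPKM, and at P1d against E18.5d the 5 higher became 3 and the 3 lower 6 with equal column sums. The cause of these shifts was not tested.

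The replicate numbers showed no sign of pairing the hearts: deviations of same-numbered hearts from their stage means correlated at -0.05 to 0.11, with 1 of 9 pairs over 0.1. Those of differently numbered hearts correlated at -0.18 to 0.13. With 3 hearts per stage this does not show that no pairing exists. With the replicate block 8 genes were higher and 3 lower at P1d against E18.5d, 10 and 5 at P7d against E18.5d, and 8 and 10 at P7d against P1d. With 3 hearts per stage, a gene that missed the threshold is not shown to be at the same level.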

Other observations

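Of the further pathway genes, 3 had a mean under 1 FPKM and were not tested. *Csl*, a citrate synthase-like gene, was at 0.06 FPKM or less in every heart and *Got1l1* at 0.06 FPKM or less. *Gls2*, the liver-type glutaminase, was at 0.14 to 0.73 FPKM at E18.5d, 0.14 to 0.32 FPKM at P1d and 0.26 to 0.46 FPKM at P7d.

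*Adhfe1*, a mitochondrial hydroxyacid-oxoacid transhydrogenase, was chosen after its values were seen, as was *Lias*. It was at 14.8 to 16.4 FPKM at E18.5d, 24.4 to 29.2 FPKM at P1d and 12.1 to 12.7 FPKM at P7d. Its log2 change was 0.75 at P1d against E18.5d (adjusted p = 7.01e-05) and -1.07 at P7d against P1d (adjusted p = 1.74e-05). *Lias*, lipoic acid synthase, whose product the DLST component carries, was at 19.3 to 24.2 FPKM, 28.5 to 31.4 FPKM and 20.1 to 20.2 FPKM in order of age, with log2 changes of 0.45 (adjusted p = 0.00182) and -0.56 (adjusted p = 0.000583) in the same comparisons. The call of *Lias* at P1d was lost with equal column sums, and no cause is weighed here.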
